A study of Mus musculus with 4 samples.

Results

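The 36 genes described here are markers and functional genes of macrophages and other leukocytes. They were taken by gene symbol from the 24771 features of the expression table, and each of the 36 symbols had a row. The study compared salivary gland (SG) placodes grown from mouse pluripotent stem cells (PSCs) with embryonic mouse submandibular glands (SMGs). The PSC-derived SG placodes (n = 2), called induced embryonic salivary glands in the labels, were 3-dimensional aggregates of the 129w2 mouse embryonic stem cell (mESC) line, collected at day 10. The mESCs were seeded at 3000 cells per well and received 2% Matrigel. They were then given 2 ng/ml BMP4 (day 3), 25 ng/ml bFGF together with 1 µM retinoic acid (day 4), and 200 ng/ml FGF10 (starting on day 6). The comparison tissue was the E12.5 mouse SMG (n = 2), an early embryonic stage, for which strain, genotype and litter are not given in the sources used here. The labels name no mutation in either group. The labels do not say whether the samples of a group came from separate cultures or litters, so p-values measure the spread between these samples, which may be technical.

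Macrophages are phagocytes that engulf dying cells and debris, and in the embryo they arise from blood progenitors of the yolk sac and fetal liver that travel to the organs through vessels. Their identity rests on the transcription factor PU.1 and on signalling through the receptor for colony-stimulating factor 1 (CSF1). Resident macrophages are found in the stroma of developing glands, including salivary glands, from early in organ formation.

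Expression was measured as FPKM, the number of sequenced fragments scaled by transcript length and by the total mapped in the library, a unit that adjusts for gene length and for the size of the library, so levels of different genes can be set side by side. Values summed to between 361960 and 384770 FPKM per sample, and between 12636 and 12807 features reached 1 FPKM. Sequencing depth could not be recovered from the values. In SMGs, the epithelial markers Krt5, Krt14 and Krt15 lay between 17.8 and 128.0 FPKM, whereas all 3 were listed at 0 in both placode samples. Of 7 salivary epithelial markers, 6 were lower in placodes and 1, Sox9, was higher.

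All 36 genes were above 0 in both SMG samples. In contrast, 20 of them were listed at 0 in both placode samples, 6 were at 0 in 1 placode sample and reached at most 0.0735 FPKM in the other, and 10 were above 0 in both. A listing at 0 in both placode samples and above 0 in both SMG samples was found for 3.69% of all features, and 8.33% of the features within the same range of SMG levels were at 0 in both placode samples. At a level of 1 FPKM in both samples of a group, 24 of the 36 genes were detected in SMGs and 4 in placodes, beside 12504 and 12419 of all features. Both placode samples were below both SMG samples for 35 of the 36 genes, and Coro1a was the exception. The same separation held for 34.2% of all features, for 46.8% of those with a mean of at least 1 FPKM and for 47.2% of those within the same range of SMG levels. In the opposite direction, 0 of the 36 genes and 29.6% of all features were separated. Summed over the 36 genes, expression was 15.9 and 15.3 FPKM in the 2 placode samples and 90.5 and 85.7 FPKM in the 2 SMG samples. Coro1a made up about as much of the placode sum as all other genes together, and without it the sums were 7.84 and 8.12 against 82.6 and 79.5 FPKM. In whole-tissue RNA, fewer cells of a type and less RNA per cell cannot be told apart.

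**Figure D1:**
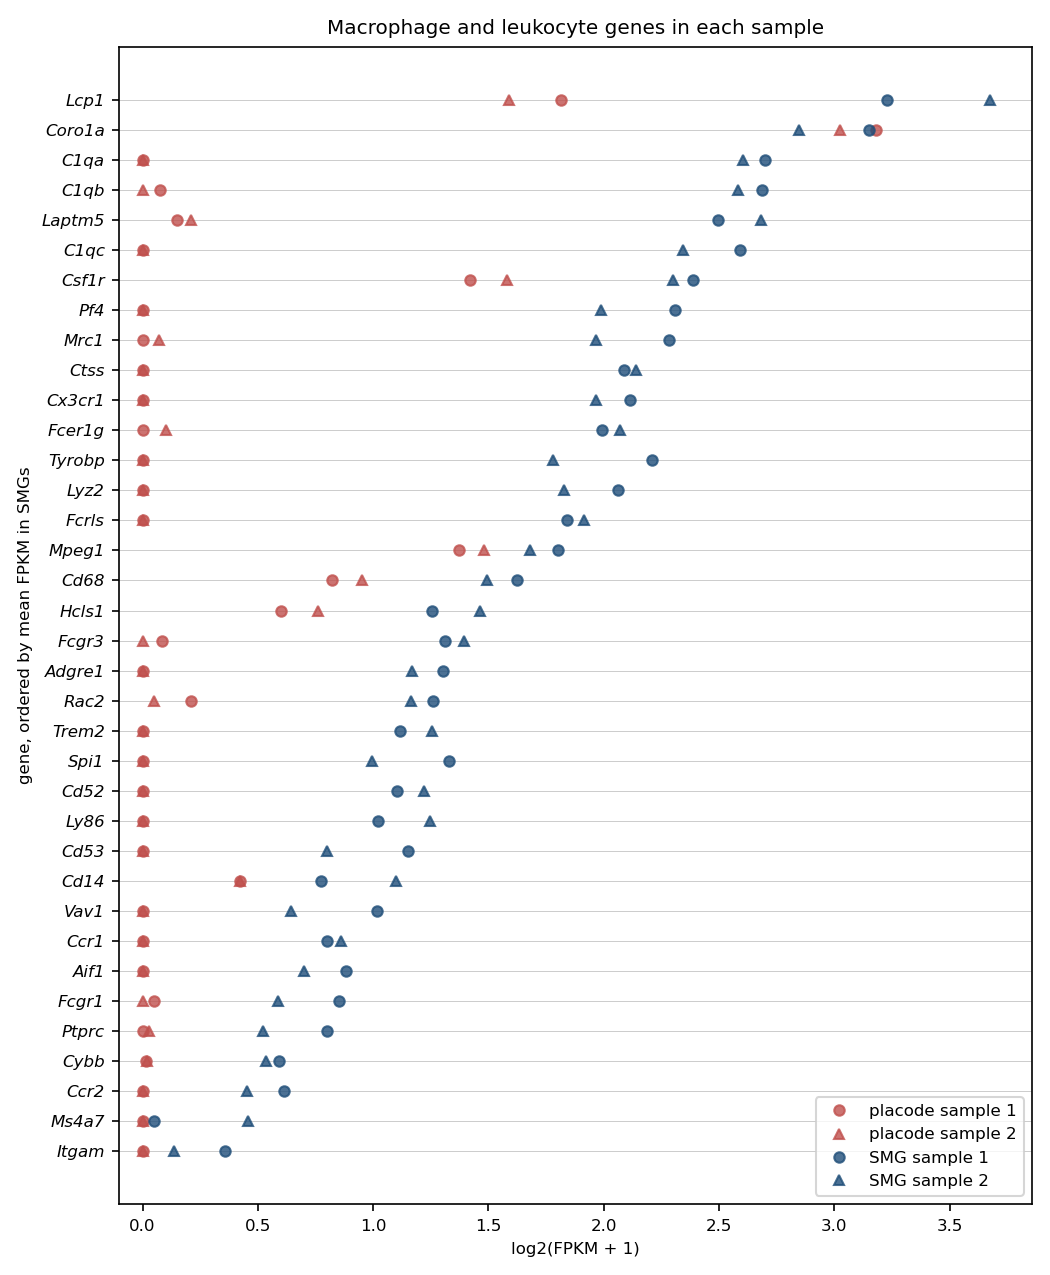
Expression of each of the 36 genes as log2(FPKM + 1), 1 point per sample, with red for placodes, blue for SMGs, circles for sample 1 and triangles for sample 2. Genes are ordered by their mean in SMGs, and 20 of the 36 lie at 0 in both placode samples.

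Differences were tested with limma on log2(FPKM + 1) for features with a mean of at least 1 FPKM over the 4 samples. A fold change on this scale understates the change of genes with low values. Of the 36 genes, 18 reached that mean and were tested. Among them, 17 were lower in placodes at a Benjamini-Hochberg adjusted p below 0.05 and 0 were higher. Over all 13193 features tested, 76.2% differed, 40.4% being lower and 35.7% higher in placodes. A gene near 0 in placodes could reach the mean of 1 only through a high SMG level, so its presence among the tested genes is tied to a difference. For the 8 tested genes at 0 in both placode samples, levels are given below without a p-value. C1qb, Fcer1g, Mrc1, Laptm5, Cd68 and Hcls1 had placode means under 1 FPKM and passed the minimum only through their SMG levels. Their differences are likewise given without a p-value. The 18 untested genes were too low for the test, and in all of them both placode samples were below both SMG samples. Of these 18, 12 were at 0 in both placode samples. The same separation held for 34.2% of all features. When the minimum was dropped and all 36 genes were fitted, 32 were lower in placodes, beside 31.1% of the 20464 features with a value. The 4 genes not past the threshold in that fit were Mpeg1, Itgam, Ms4a7 and Coro1a. The median difference of the 18 tested genes was -1.99 on the log2(FPKM + 1) scale, beside -0.050 over all tested features. In the fit of all 36 genes the median was -1.15, beside -0.030 over all features fitted. Without SMG sample 1, only 11 of the genes reached the minimum and 9 of them were lower.

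Spi1 encodes PU.1, the ETS family factor that directs the myeloid lineage. Its level was 0 in both placode samples and 1.51 and 0.992 FPKM in SMGs, so both SMG samples lay above the placodes. Its mean over the samples was under 1 FPKM, which kept it out of the main test. In the fit without a minimum, its difference was -1.16 on the log2(FPKM + 1) scale, given without a p-value because both placode samples were at 0. Spi1 lies on chromosome 2 at 91082390 to 91115756 (GRCm38, plus strand).

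Csf1r encodes the CSF1 receptor, which macrophages need for survival. Unlike Spi1, it was not at 0 in placodes, where it measured 1.68 and 1.99 FPKM, against 4.23 and 3.93 FPKM in SMGs. The placode mean was 45.0% of the SMG mean, and the difference was -0.84 on the log2(FPKM + 1) scale (SE 0.11, limma adjusted p = 5.85e-04). The groups did not overlap. Csf1r shares 873 exonic bases with the opposite-strand gene Hmgxb3, which measured between 11.1 and 12.6 FPKM in the 4 samples. The strandedness of the libraries is not given in the sources used here. Reads within the shared bases, 873 of the 5774 exonic bases of Csf1r, therefore cannot be told apart.

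Because PU.1 binds a purine-rich core, the promoters of the 36 genes were searched for GAGGAA on either strand. RefSeq promoter windows, from 250 bases before to 50 bases after a start, were at hand for 28 of the 36 genes (33 windows, GRCm38.p6). GAGGAA was present in 20 of the 33 windows (60.6%), belonging to 19 genes, and in 28.3% of all 32851 windows. Within the last 100 bases before the start, a stretch chosen after the matches were seen, it was present in 12 of the 33 windows (11 genes) and in 9.82% of all windows. The other motifs searched on both strands were TTGCNNAA, a core bound by C/EBP factors (18.2% of the 33 windows and 10.8% of all), TATAAA (15.2% and 13.6%) and the ETS and interferon regulatory factor composite element, EICE (6.06% and 2.72%). The composite overlapped a GAGGAA match on the same strand in both of its windows, those of Cd68 and Cybb. A match describes letters in a window and not a bound site.

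The last 100 bases before the start are shown for 6 of the 11 genes with a match there and for Mpeg1 and Hcls1. Mpeg1 and Hcls1 had no match in the whole window and were above 0 in both placode samples. Laptm5, also above 0 in both placode samples, had a match in the last 100 bases and is not shown. The stretches are written from 5′ to 3′ on the strand of the gene, with capitals marking GAGGAA or its reverse complement TTCCTC. All 8 stretches lie outside the gene as GENCODE M21 places it: C1qb at chr4:136886201-136886300 on the minus strand, Trem2 at chr17:48346301-48346400 on the plus strand, Fcgr1 at chr3:96293970-96294069 on the minus strand, Cd53 at chr3:106790150-106790249 on the minus strand, Pf4 at chr5:90772335-90772434 on the plus strand, Vav1 at chr17:57279000-57279099 on the plus strand, Mpeg1 at chr19:12460670-12460769 on the plus strand and Hcls1 at chr16:36934883-36934982 on the plus strand.
C1qb: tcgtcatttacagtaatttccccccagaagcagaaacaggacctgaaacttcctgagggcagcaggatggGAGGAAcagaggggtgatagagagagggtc
Trem2: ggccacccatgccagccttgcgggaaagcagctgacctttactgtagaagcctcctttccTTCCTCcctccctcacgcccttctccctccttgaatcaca
Fcgr1: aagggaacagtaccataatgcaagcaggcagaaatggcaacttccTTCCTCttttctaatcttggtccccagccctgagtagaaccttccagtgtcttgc
Cd53: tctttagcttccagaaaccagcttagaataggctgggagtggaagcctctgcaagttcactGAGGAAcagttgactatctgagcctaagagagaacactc
Pf4: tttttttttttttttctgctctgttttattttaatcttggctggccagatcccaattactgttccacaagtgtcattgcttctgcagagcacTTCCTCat
Vav1: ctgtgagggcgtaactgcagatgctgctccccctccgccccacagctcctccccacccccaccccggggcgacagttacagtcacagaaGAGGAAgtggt
Mpeg1: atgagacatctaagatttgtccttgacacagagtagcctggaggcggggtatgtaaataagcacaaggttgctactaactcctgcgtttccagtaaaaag
Hcls1: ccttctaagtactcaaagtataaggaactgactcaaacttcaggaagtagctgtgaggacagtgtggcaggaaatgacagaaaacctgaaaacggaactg

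In these windows the match began 30 bases upstream of the start in C1qb, 40 in Trem2, 55 in Fcgr1, 39 in Cd53, 8 in Pf4 and 11 in Vav1. Of these 6 genes, 4 were at 0 in both placode samples, and the others, C1qb and Fcgr1, measured 0.0523 and 0.0346 FPKM in placode sample 1 and 0 in placode sample 2. Mpeg1 and Hcls1 were above 0 in both. A match in the window was not limited to genes near 0 in placodes. Of the 7 genes with a window that were above 0 in both placode samples, 3 had a match (Laptm5, Cd68 and Cybb) and 4 had none, compared with 11 and 4 of the 15 that were at 0 in both. Those 4 genes at 0 and without a match were Cx3cr1, Ccr2, Lyz2 and Ly86.

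C1qa, C1qb and C1qc encode the chains of C1q, the recognition molecule of the classical complement pathway, which macrophages secrete and which tags dying cells. All 3 were lower in placodes and were among the highest of the 36 genes in SMGs. C1qa was 0 in both placode samples and 5.49 and 5.09 FPKM in SMGs. For C1qb the values were 0.0523 and 0 FPKM in placodes and 5.43 and 4.98 FPKM in SMGs, a difference of -2.60 on the log2(FPKM + 1) scale. C1qc was 0 in both placode samples and 5.03 and 4.07 FPKM in SMGs. Each chain was thus close to its partners in level, and the samples of each group lay near each other and far from the other group. The genes form a cluster on the minus strand of chromosome 4 (GRCm38), with C1qb at 136880129 to 136886187, C1qc at 136889804 to 136893065 and C1qa at 136895917 to 136898803.

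Tyrobp and Fcer1g encode the ITAM adaptors DAP12 and the Fc receptor gamma chain, which pass on signals of receptors that lack their own signalling tail. Tyrobp was 0 in both placode samples and 3.62 and 2.44 FPKM in SMGs. Fcer1g was 0 and 0.0735 FPKM in placodes and 2.98 and 3.20 FPKM in SMGs, a difference of -1.98 on the log2(FPKM + 1) scale. Neither adaptor overlapped between the groups. The receptors that pair with them followed the same order at lower levels. Trem2, a lipid receptor that signals through DAP12, was 0 in both placode samples and 1.17 and 1.39 FPKM in SMGs. The Fc receptor Fcgr3 was 0.0592 and 0 FPKM in placodes and 1.49 and 1.63 FPKM in SMGs. Fcgr1, the high-affinity Fc receptor, was 0.0346 and 0 FPKM in placodes and 0.807 and 0.503 FPKM in SMGs. Fcrls, an Fc receptor-like gene known as a marker of mouse microglia, was 0 in both placode samples and 2.59 and 2.77 FPKM in SMGs.

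The chemokine Pf4 and the chemokine receptors Cx3cr1, Ccr1 and Ccr2 were all listed at 0 in both placode samples. Pf4, made by platelets and by some macrophages, was 3.96 and 2.97 FPKM in SMGs. Cx3cr1, the fractalkine receptor of macrophages and microglia, was 3.32 and 2.91 FPKM in SMGs. Ccr2, which marks monocytes, was lower than Cx3cr1 in each SMG sample, at 0.529 and 0.369 FPKM. Ccr1 was 0.741 and 0.819 FPKM in SMGs. The gene Cx3cr1 shares 78 exonic bases with an antisense gene.

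The genes of phagocytosis, lysosome and killing divided into those at or near 0 in placodes and those clearly above 0. Mrc1, the mannose receptor, was 0 and 0.0511 FPKM in placodes and 3.86 and 2.91 FPKM in SMGs, a difference of -2.09 on the log2(FPKM + 1) scale. Lyz2, the lysozyme of macrophages and granulocytes, was 0 in both placode samples and 3.17 and 2.55 FPKM in SMGs. Ctss, the protease cathepsin S, was 0 in both placode samples and 3.26 and 3.40 FPKM in SMGs. The 2 SMG samples of Ctss lay closer together than those of Mrc1 or Lyz2.

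Cd68, a lysosomal membrane protein used to stain macrophages, was present in placodes at 0.769 and 0.936 FPKM and in SMGs at 2.08 and 1.82 FPKM. The placode mean was 43.7% of the SMG mean, and the difference was -0.67 on the log2(FPKM + 1) scale. Cd14, a co-receptor for lipopolysaccharide, was 0.342 and 0.340 FPKM in placodes and 0.712 and 1.14 FPKM in SMGs, and was too low for the main test. Cybb, the membrane subunit of the phagocyte oxidase, was 0.0118 and 0.0121 FPKM in placodes and 0.509 and 0.451 FPKM in SMGs. None of the 3 overlapped between the groups.

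Mpeg1, the pore-forming protein perforin-2, had the smallest difference among the genes called lower. It was 1.59 and 1.79 FPKM in placodes and 2.48 and 2.21 FPKM in SMGs, so the groups did not overlap. The difference was -0.31 on the log2(FPKM + 1) scale (SE 0.11, limma adjusted p = 0.0413). Its call was lost in 9 of the 11 alternative analyses in which it was tested, among them the removal of any 1 of the 4 samples, and the adjusted p ranged from 0.0176 to 0.145.

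Most genes of surface and membrane proteins were low in SMGs and at 0 in placodes. Laptm5, a lysosomal membrane protein of blood cells, was the exception, with 0.109 and 0.157 FPKM in placodes and 4.65 and 5.41 FPKM in SMGs. Its placode mean was 2.65% of the SMG mean, a difference of -2.41 on the log2(FPKM + 1) scale. Ptprc encodes CD45, the phosphatase carried by nearly all leukocytes. It was 0 and 0.0194 FPKM in placodes and 0.744 and 0.438 FPKM in SMGs. Adgre1, which encodes the macrophage antigen F4/80, was 0 in both placode samples and 1.47 and 1.25 FPKM in SMGs. Both pan-leukocyte and macrophage surface markers were therefore above the placodes in each SMG sample.

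The remaining surface genes were all 0 in both placode samples. Cd52, a small glycoprotein of lymphocytes and myeloid cells, was 1.15 and 1.33 FPKM in SMGs, and shares 172 exonic bases with the opposite-strand gene Crybg2. The tetraspanin Cd53 was 1.22 and 0.743 FPKM in SMGs, and Ly86, which encodes the Toll-like receptor partner MD-1, was 1.03 and 1.37 FPKM. Itgam, the CD11b integrin chain, was 0.283 and 0.0997 FPKM in SMGs. It shares 3450 exonic bases with a same-strand gene model, Gm49368, so its level is uncertain. Ms4a7 was the gene with the least even SMG samples, at 0.0352 and 0.375 FPKM. Aif1, which encodes the actin-binding protein Iba1 of macrophages and microglia, belongs to the next set and was likewise 0 in both placode samples, with 0.843 and 0.625 FPKM in SMGs.

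The genes of actin remodelling and signalling included the highest levels of the 36 genes in either group. Lcp1, which encodes the actin bundler L-plastin, was the highest of the 36 genes in SMGs at 8.39 and 11.8 FPKM, and measured 2.52 and 2.01 FPKM in placodes. Its placode mean was 22.5% of the SMG mean, a difference of -1.75 on the log2(FPKM + 1) scale (SE 0.17, limma adjusted p = 1.34e-04). The groups were well apart, although the SMG samples of Lcp1 differed more from each other than its placode samples did. Lcp1 shares 311 exonic bases with the opposite-strand gene Gm15628 and 219 with Gm15629. Hcls1, a cortactin-like protein of blood cells, was 0.518 and 0.694 FPKM in placodes and 1.39 and 1.76 FPKM in SMGs. Its difference was -0.68 on the log2(FPKM + 1) scale. Rac2, a small GTPase of blood cells, was 0.156 and 0.0350 FPKM in placodes and 1.39 and 1.24 FPKM in SMGs, with a placode mean at 7.27% of the SMG mean. The exchange factor Vav1 was 0 in both placode samples and 1.02 and 0.562 FPKM in SMGs.

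Coro1a, the actin regulator coronin-1A, was the only tested gene of the 36 that did not pass the threshold. It was 8.06 and 7.15 FPKM in placodes and 7.88 and 6.19 FPKM in SMGs, so the groups overlapped. The difference was 0.10 on the log2(FPKM + 1) scale (SE 0.12, limma adjusted p = 0.469), with a 95% interval from -0.20 to 0.41. Without SMG sample 2 the sign turned, to -0.048. In placodes Coro1a was the highest of the 36 genes in both samples. It shares 26 exonic bases with the opposite-strand gene Bola2, which measured 12.99 and 9.91 FPKM in placodes and 8.09 and 8.67 FPKM in SMGs. The 6 markers of neurons tested, which also express Coro1a, summed to 910.3 and 945.3 FPKM in placodes and 85.0 and 76.2 FPKM in SMGs, and their part in the Coro1a level was not tested.

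**Figure D2:**
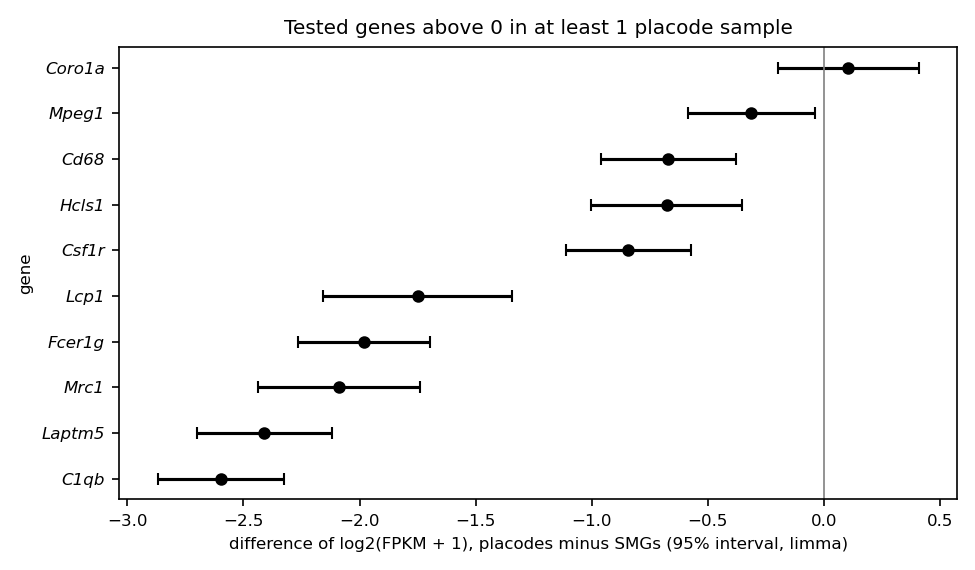
Difference of log2(FPKM + 1), placodes minus SMGs, for the 10 tested genes that were above 0 in at least 1 placode sample, with limma's 95% interval as bars and a line at 0. The interval of Coro1a spans 0, and the other 9 lie below it. Among these 9, C1qb, Fcer1g, Mrc1, Laptm5, Cd68 and Hcls1 passed the minimum only through their SMG levels. Their position below 0 is therefore tied to the minimum.

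Within SMGs the 36 genes were of low to moderate abundance. Their SMG means ran from 0.191 FPKM for Itgam to 10.1 FPKM for Lcp1, with a median of 1.56 FPKM, above 51.7% of all features. Lcp1 and Coro1a led this order, and their ranges over the 2 SMG samples did not overlap. C1qa, C1qb and Laptm5 followed with overlapping ranges, and C1qc and Csf1r came next. At the other end were Ccr2, Ms4a7 and Itgam. The 2 SMG samples differed for several of the genes. In SMG sample 2, 23 of the 36 were below sample 1, compared with 54.1% of all tested features, and the median ratio of sample 2 to sample 1 was 0.888, beside 0.989 over tested features. For the 25 genes with an SMG mean of at least 1 FPKM, this ratio ran from 0.656 in Spi1 to 1.40 in Lcp1.

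Many leukocyte proteins belong to families with relatives in other tissues, and such relatives were compared with 13 of the 36 genes. Of the 22 relatives, 19 were at 1 FPKM or more in all 4 samples, and 15 were at 10 FPKM or more. For each of the 13 genes, at least 1 relative was above it in every sample. Among the relatives, 14 were lower in placodes, 6 were higher, 1 did not pass the threshold and 1 was below the minimum, and their median difference was -0.39 on the log2(FPKM + 1) scale. Over all tested features, 40.4% were lower and 35.7% were higher. The relatives were chosen with earlier results of these data known.

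The orders of Vav1 and Vav2 were opposite. Vav2, a more broadly expressed exchange factor, was 30.7 ± 0.963 FPKM in placodes and 7.98 ± 0.465 FPKM in SMGs (mean ± SD, n = 2 each), a difference of 1.82 on the log2(FPKM + 1) scale (limma adjusted p = 2.41e-06). Rac1, the ubiquitous relative of Rac2, was 78.5 and 94.2 FPKM in placodes and 104.9 and 99.2 FPKM in SMGs. It shares 2309 exonic bases with the opposite-strand gene Daglb. Rac1 was lower in placodes by a difference of -0.24 (limma adjusted p = 0.0459), beside -1.08 for Rac2 in the fit without a minimum. The call of Rac1 was lost in 7 alternatives, which were both rescalings to an equal sum or median ratio, the fit without a variance trend, the fit without a minimum, and the fits without placode sample 1 or either SMG sample. Coro1c, a coronin of many tissues, was 105.4 and 106.7 FPKM in placodes and 41.3 and 40.5 FPKM in SMGs, a difference of 1.35 (limma adjusted p = 1.56e-06), beside no call for Coro1a. Coro1b had the reverse order of Coro1c, at 36.3 and 41.3 FPKM in placodes and 65.8 and 64.0 FPKM in SMGs.

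The relatives of Lcp1 differed in order. Pls3 was 20.3 and 21.1 FPKM in placodes and 51.2 and 48.9 FPKM in SMGs, a difference of -1.23 on the log2(FPKM + 1) scale (limma adjusted p = 4.45e-06), in the same direction as Lcp1. Pls1, known from the brush border of epithelia, was 6.27 and 6.09 FPKM in placodes and 1.43 and 0.996 FPKM in SMGs, the reverse order of Lcp1. Cttn, the widely expressed relative of Hcls1, was 58.9 and 58.8 FPKM in placodes and 64.0 and 64.1 FPKM in SMGs, a difference of -0.12 (limma adjusted p = 0.0467) whose call was lost when any 1 sample was removed, under rescaling to an equal sum or median ratio, without a variance trend and with the replicate number as a block. Laptm4a, a relative of Laptm5, was 103.9 and 101.2 FPKM in placodes and 291.5 and 295.9 FPKM in SMGs. Laptm4b, another relative of Laptm5, had the reverse order, at 63.3 and 58.1 FPKM in placodes and 46.5 and 48.8 FPKM in SMGs. The groups did not overlap for any of these relatives.

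Among the cathepsins, Ctsl was 105.1 and 99.3 FPKM in placodes and 78.1 and 68.7 FPKM in SMGs, a difference of 0.47 (limma adjusted p = 1.19e-03), opposite in sign to that of Ctss. Ctsl shares 1742 exonic bases with the opposite-strand gene Gm47123. Ctsk, the collagen-degrading cathepsin whose gene neighbours Ctss on chromosome 3, was 2.30 and 2.72 FPKM in placodes and 68.7 and 69.5 FPKM in SMGs. Mrc2, the relative of Mrc1 carried by mesenchymal cells, was 11.6 and 11.4 FPKM in placodes and 37.8 and 38.3 FPKM in SMGs. Both Ctsk and Mrc2 were higher in SMGs, as Ctss and Mrc1 were.

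**Figure D3:**
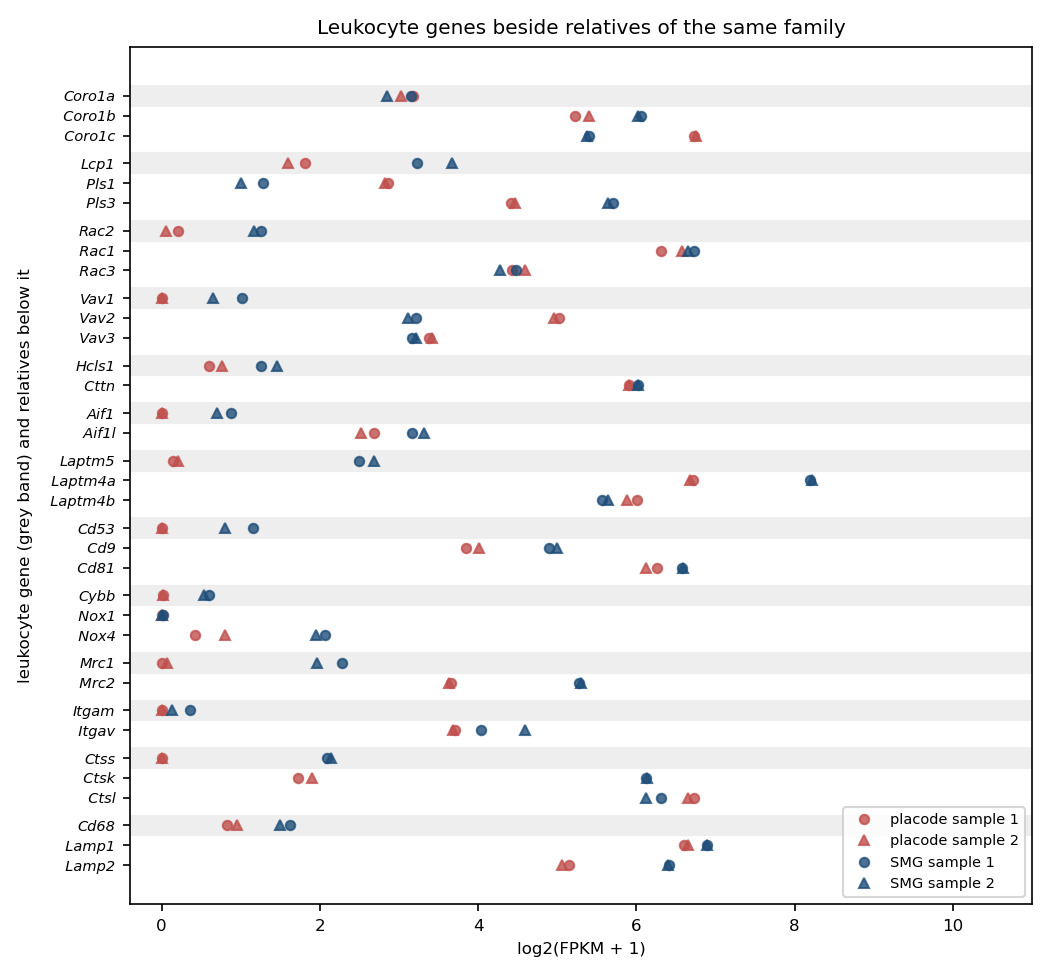
Expression as log2(FPKM + 1) of 13 leukocyte genes (grey bands) and, below each, of 22 relatives from the same family, with red for placodes, blue for SMGs, circles for sample 1 and triangles for sample 2. In each family at least 1 relative is above the leukocyte gene in all 4 samples.

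Other genes of the same pathways were read from 21 lists, which together held 213 genes, 212 of them in the table. In all, 85 were tested, of which 64 were lower and 20 were higher in placodes. Over all 13193 tested features, 40.4% were lower and 35.7% were higher, shares that also stand beside each list count below. Csf1, the ligand of Csf1r, was 3.11 and 3.16 FPKM in placodes and 4.19 and 3.99 FPKM in SMGs, a difference of -0.30 on the log2(FPKM + 1) scale (limma adjusted p = 0.0265). It was thus present in both groups, and with the granulocyte-macrophage receptor chain Csf2ra it made up the 2 tested genes of 7 in its list, both lower. That count fell to 1 when any 1 of the 4 samples was removed. Of 11 myeloid transcription factors, 7 were tested and 6 of them were lower. Maf led the list in SMGs at 43.6 and 41.0 FPKM, against 6.75 and 6.41 FPKM in placodes.

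Downstream of the ITAM adaptors, 3 of 13 signalling genes were tested and all 3 were lower. The kinase Lyn, highest of these in SMGs, was 0.263 and 0.334 FPKM in placodes and 3.29 and 3.23 FPKM in SMGs. Of 13 further myeloid receptors and adaptors, 1 was tested, Sirpa, and its lower call was lost without placode sample 1 and without SMG sample 1. Among those 13 receptors and adaptors, 4 had both placode samples below both SMG samples, beside 34.2% of all features. Both were above in 0 of them, beside 29.6%, and 5 were at 0 in all samples. Of the other 4 phagocyte oxidase genes, Cyba, which encodes the partner chain of Cybb, was 6.00 and 5.11 FPKM in placodes and 21.8 and 17.7 FPKM in SMGs, and the rest were below the minimum. Of 12 other complement genes, 4 were tested, of which 3 were lower and 1, Serping1, the inhibitor of C1, was higher. Serping1 was 9.55 and 11.2 FPKM in placodes and 7.09 and 7.88 FPKM in SMGs, opposite in order to the C1q chains. Its call was lost without placode sample 2 and without SMG sample 1. Of 11 Toll-like receptor genes, 4 were tested and all 4 were lower, led by the adaptor Myd88 at 1.90 and 2.65 FPKM in placodes and 6.46 and 4.82 FPKM in SMGs.

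Further surface genes of macrophages and microglia included some with the reverse order. Of 16 macrophage surface genes, 5 were tested, with 4 lower and 1 higher. Axl, a receptor for dying cells that many tissues express, was 7.19 and 6.88 FPKM in placodes and 78.2 and 80.2 FPKM in SMGs. Lgals3, which encodes galectin-3, was 6.62 and 8.35 FPKM in placodes and 0.304 and 0.347 FPKM in SMGs. Of 9 microglia genes, 4 were tested, with 2 lower and 2 higher, of which 1 stayed higher when any 1 sample was removed. Sall1, a factor of microglia and of several embryonic tissues, was 33.4 and 34.1 FPKM in placodes and 0.154 and 0.0893 FPKM in SMGs. Tested or not, 7 of the 9 microglia genes had both placode samples below both SMG samples, beside 34.2% of all features. The other 2 had both placode samples above, beside 29.6%. Of 14 chemokine genes, 4 were tested, with 2 lower and 2 higher, and the count lower fell to 1 without either SMG sample, as the count higher did without placode sample 1. Cxcl12 was 3.71 and 3.36 FPKM in placodes and 150.3 and 171.0 FPKM in SMGs, whereas its receptor Cxcr4 was 20.3 and 23.1 FPKM in placodes and 6.88 and 6.06 FPKM in SMGs. General lysosome genes were present throughout, with sums of 606.1 and 592.1 FPKM in placodes and 682.0 and 683.1 FPKM in SMGs. Of these 10 genes, 7 were lower and 2, Ctsl and Psap, were higher.

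Of 15 T and NK cell genes, 1 was tested, the kinase Lck, which was higher in placodes (4.15 and 4.30 FPKM) than in SMGs (2.20 and 2.54 FPKM), and 10 were at 0 in both placode samples. Of 16 granulocyte and mast cell genes, 1 was tested, Prtn3, which was 5.19 and 4.52 FPKM in placodes and 2.36 and 2.09 FPKM in SMGs. None of the 6 B cell genes in the table or of the 10 megakaryocyte genes reached the minimum. Both placode samples were below both SMG samples for 9 of the 10 megakaryocyte genes and 2 of the 6 B cell genes. The share over all features was 34.2%. Both placode samples were above for 0 genes of either list, beside 29.6%. Of 8 genes of dendritic cells and class II antigen presentation, 2 were tested. Tested or not, 4 of the 8 had both placode samples below both SMG samples, and 2 had both above. H2-Ab1, a class II chain, was 26.6 and 25.3 FPKM in placodes and 0.0770 and 0 FPKM in SMGs, and Zbtb46 was lower in placodes, a call lost without placode sample 2 and without SMG sample 2.

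The order of the 36 genes was shared by the summed markers of erythroid cells and vessels. The 9 erythroid genes summed to 2.11 and 2.00 FPKM in placodes and 2495 and 2394 FPKM in SMGs, with Hbb-y, an embryonic globin, at 0 in both placode samples. Of these, 6 were lower and 1, Epor, was higher in placodes, a call lost without either placode sample and without SMG sample 2. All 10 endothelial genes were lower, with sums of 13.2 and 12.4 FPKM in placodes and 168.8 and 174.4 FPKM in SMGs and a median difference of -3.67 on the log2(FPKM + 1) scale. Cdh5, the endothelial cadherin, was 8.07 and 7.60 FPKM in placodes and 30.3 and 35.4 FPKM in SMGs. All 6 mesenchymal genes were also lower, with sums of 190.2 and 184.2 FPKM in placodes and 1795 and 1751 FPKM in SMGs. Their part in the levels of the 36 genes was not tested.

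**Figure D4:**
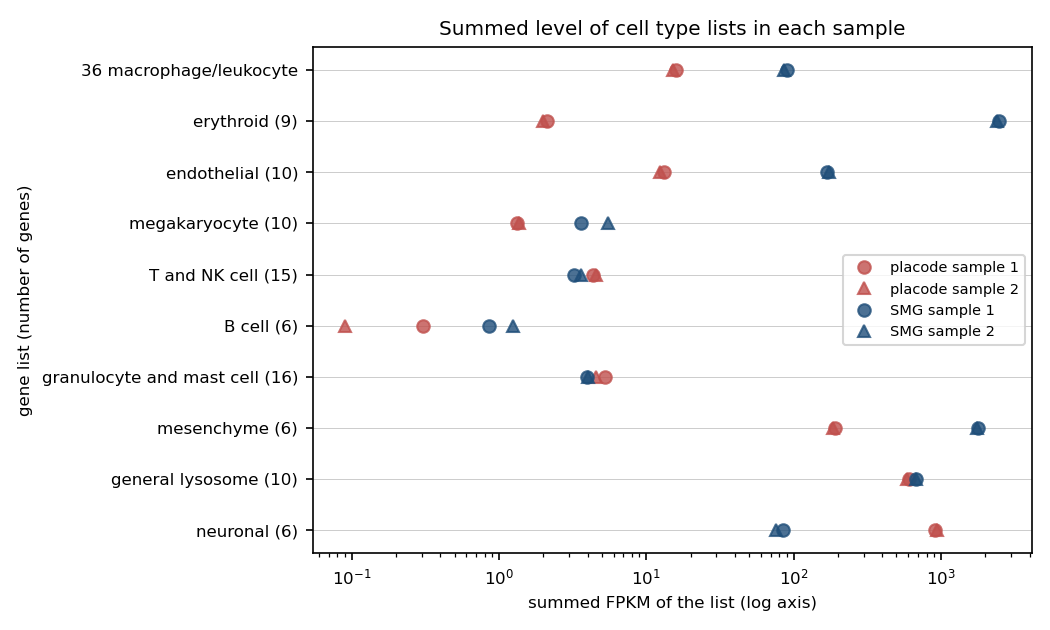
Summed FPKM (log axis) of the 36 genes and of 9 marker lists, 1 point per sample, with the number of genes of each list in brackets, red for placodes and blue for SMGs. The 36 genes sum to 15.3 and 15.9 FPKM in placodes and to 85.7 and 90.5 FPKM in SMGs. Erythroid, endothelial, mesenchymal, megakaryocyte, B cell and general lysosome sums lie in the same order. The neuronal, T and NK cell, and granulocyte and mast cell sums are reversed.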

How the data were processed

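The authors extracted RNA from 2 samples of PSC-derived SG placodes and, per the labels, 2 samples of E12.5 SMGs, prepared NEBNext Ultra libraries, mapped paired-end reads with HISAT2 and deposited expression as FPKM. The submitters' processing notes name the builds GRCm38 and GRCh38. HISAT2's version, the annotation, the strandedness and the program behind the FPKM values are not given in the sources used here. At a tolerance of 0.1 of a read, at most 35.2% of low values were whole multiples of 1 read (20% would be without steps), so depth is unknown and counting intervals cannot be given.

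Log2(FPKM + 1) values of features with a mean of at least 1 FPKM entered a linear model (R 4.3.3, limma 3.58.1, moderated with a mean-variance trend, group as the only term, two-sided, Benjamini-Hochberg over 13193 features, adjusted p below 0.05). An exact permutation test of 2 against 2 samples cannot go below p = 0.333 and was not used. Positions came from GENCODE M21, in which 22022 of 22036 Ensembl identifiers and all 36 members were found. Promoter windows came from RefSeq (GRCm38.p6), and motifs were searched in Python 3.11.15. The 36 genes, the lists and the relatives were chosen with earlier results of these data known. All 36 genes could be named, and of each list the highest gene in each group and genes called against the majority. Samples with the same number did not deviate together (r = -0.035 over 13193 features). The fit was tested on simulated data. A planned description of protein motifs was not run. The result of 1 listed gene is not reported here.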

Additional observations from a re-analysis of the deposited data

How the results depend on the processing

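With 2 samples per group and unknown depth, small differences and genes under 1 FPKM carry little weight. Of 191 results of tested members under 12 alternatives, 181 kept direction and side of the threshold, 9 lost their call (all Mpeg1), and Coro1a, at 0.10, ranged from -0.048 (without SMG replicate 2, a change of sign) to 0.26 when 1 replicate was left out. The cause was not tested. Members called lower numbered 17, but 32 without a minimum of mean FPKM and 1 with a minimum of 5, where 2 were tested. Leaving out 1 replicate gave 9 to 17, the 9 without SMG replicate 1, where only 11 were tested. The median difference of -1.99 became -4.80 with a pseudocount of 0.1, -1.15 without a minimum and -0.82 with a minimum of 5, and lay between -2.10 (without SMG replicate 2) and -1.94 when 1 replicate was left out. Companion genes called lower rose from 64 to 118 without a minimum. Detected members were 8 (at 0.1 FPKM) or 1 (at 5 FPKM) in place of 4 in placodes, and 3 (at 5 FPKM) in place of 24 in SMGs. Equal-sum scaling, median-ratio scaling and scaling without mitochondrial and hemoglobin genes left 16, 16 and 17 members lower. For single lists, 56 counts moved by over 1.5 times and 448 did not.

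With the replicate number as a block, 16 members were lower. The labels do not tie same-numbered samples together, and their deviations did not correlate (r = -0.035). The block moved no count of member calls by over 1.5 times, and among members it ended the call of Mpeg1 alone.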
